A study of Mus musculus with 6 samples.

Results

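Lynx1, Lypd1, Lypd6, Lypd6b, Ly6h and Ly6e, members of the Ly6/uPAR family, were followed together with Thy1 in mouse retinal ganglion cells (RGCs), the neurons whose axons form the optic nerve. These 7 genes were taken by symbol from a deposited count table of 24060 genes, and they had been chosen with their difference between the ages already known. RGCs of C57BL/6 mice at embryonic day 18 (E18) were compared with RGCs at postnatal day 5 (P5), ages between which RGCs lose much of their ability to extend axons. Each age had 3 RNA-seq samples, numbered 1, 3 and 4 at E18 and 6, 8 and 9 at P5, and the labels name no treatment. Retinas were dissociated with papain, macrophages were removed on antibody-coated dishes, and RGCs were then held on dishes coated with an antibody against CD90, which is the protein made by Thy1 itself. The sources used here do not say how many animals went into a sample, nor whether samples of one age came from separate litters or preparations, so the tests below measure the spread between these samples only. The name of the E18 replicate 1 column also holds a 2 and a 5, and no source says if preparations were pooled in it.

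Ly6/uPAR proteins share a small, cysteine-rich fold, the three-finger fold, which they hold in common with snake venom toxins that block nicotinic acetylcholine receptors. Most are tethered to the outer face of the membrane by a glycosylphosphatidylinositol (GPI) anchor. Several of them bind nicotinic receptors and change their assembly, surface level or sensitivity. Lynx1 is the best known, as a brake on nicotinic signalling that restrains plasticity in the adult visual cortex. Thy1 has no three-finger fold. It is a single immunoglobulin domain on a GPI anchor, abundant on mature neurons, and a long-used marker of RGCs in the retina.

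A stretch of coding sequence is shown for each Ly6 gene, since it carries the cysteine signature that the family shares and that Thy1 lacks. It runs over 8 codons, and capitals mark cysteine codons: 2 adjacent ones, then 4 codons of any kind, 1 more cysteine codon and an asparagine codon. The sequences are written 5′ to 3′ along the gene, from the GENCODE transcripts of mm10.
Lynx1: TGTTGCcagtactacctcTGCaac
Lypd1: TGCTGCaacacccctcttTGCaat
Lypd6: TGCTGTgaaggaaatatcTGTaat
Lypd6b: TGCTGTgaaggaatgatcTGCaac
Ly6h: TGCTGCgagaaagatttgTGCaac
Ly6e: TGCTGCcaaagctccttcTGCaac

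Each stretch lies within 1 coding exon. It covers chr15:74751306-74751329 on the minus strand in Lynx1, codons 85 to 92 of 116, and chr1:125873441-125873464 on the minus strand in Lypd1, codons 100 to 107 of 141. In Lypd6 it covers chr2:50190662-50190685 on the plus strand, codons 121 to 128 of 171, and in Lypd6b chr2:49947432-49947455 on the plus strand, codons 139 to 146 of 191. In Ly6h it covers chr15:75565196-75565219 on the minus strand, codons 124 to 131 of 160, and in Ly6e chr15:74958594-74958617 on the plus strand, codons 98 to 105 of 136. The pattern was found in 60 of 20311 genes with a whole coding sequence (0.295%), and in 30 of 36 other Ly6/uPAR genes. The 6 Ly6 members had between 10 and 15 cysteine codons each. Thy1 did not hold the pattern and had 4 cysteine codons in 162. Over whole coding sequences, Lypd6 and Lypd6b were the most alike of the 21 pairs, with 53.3% identical positions in a global alignment. The other pairs lay between 40.7% and 51.0%. Pairs of Thy1 with a Ly6 gene lay at 45.3% to 49.2%, inside that range, so values in it do not set family members apart from Thy1. No transcript of a member shared an unbroken stretch of 50 bases with another member or with another family gene.

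The genes lie on 4 chromosomes. Lynx1 (ENSMUSG00000022594.14) spans chr15:74747852-74753046 on the minus strand, Ly6e (ENSMUSG00000022587.14) chr15:74955051-74959905 on the plus strand and Ly6h (ENSMUSG00000022577.17) chr15:75551268-75567255 on the minus strand, all 3 in the large Ly6 cluster of chromosome 15. Lypd6b (ENSMUSG00000026765.12, chr2:49787688-49948849) and Lypd6 (ENSMUSG00000050447.15, chr2:50066429-50193569) are neighbours on the plus strand of chromosome 2. Lypd1 (ENSMUSG00000026344.9) spans chr1:125867622-125913101 on the minus strand, and Thy1 (ENSMUSG00000032011.5) chr9:44043384-44048579 on the plus strand.

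The deposited counts on genes summed to between 81213639 and 114512853 per sample, and 16449 genes passed the filter on low counts. All 14 RGC markers passed it, and their summed level ranged from 10100 to 11500 CPM (counts scaled to a common library size) at E18 and from 9930 to 10800 CPM at P5. Single markers differed between the ages, 4 higher and 5 lower at E18, or 64.3% against 43.4% of all genes tested. Among these were Isl1 and Tubb3 with log2 fold changes, E18 over P5, of 1.10 and 0.49 and Nefh and Slc17a6 with -1.89 and -1.40 (adjusted p = 0.000857, 0.00247, 0.00145 and 0.000931). Rbpms, an RNA-binding protein used to mark RGCs, was at 293 ± 23.7 CPM at E18 and 315 ± 21.5 CPM at P5 (SD, n = 3 each). E18 replicates 1 and 3 stood apart from E18 replicate 4 and from P5 in markers of other cells. Those of dividing cells summed to 277, 77.8 and 25.8 CPM in E18 replicates 1, 3 and 4 and to between 20.9 and 34.4 CPM at P5. Tfap2b, an amacrine factor, stood at 47.5, 119 and 1.62 CPM in the E18 samples and at 1.02 to 1.55 CPM at P5, and Sox2, a progenitor factor, at 45.7, 69.3 and 0.950 CPM and at 0.790 to 1.48 CPM. Results are therefore also given for E18 replicate 4 alone against the 3 P5 samples, a comparison chosen after the data were seen, in which the lone sample is assumed to vary like the P5 samples. Of the 16449 genes, 43.4% passed the threshold between the ages, 22.5% as lower at E18 and 20.8% as higher at E18. The number of genes past it ranged from 4575 without E18 replicate 3 to 8796 without P5 replicate 8, against 7135 with all samples, and was 1633 with E18 replicate 4 alone. In bulk samples, fewer cells that express a gene and less of its RNA per cell cannot be told apart.

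Among the 7 members, 6 were past the threshold, all lower at E18, and Ly6h was not. The share over all genes was 22.5% in that direction. The same 6 genes had all E18 samples below all P5 samples, which held for 28.5% of the genes tested, while 27.6% had all E18 samples above. Lynx1, Lypd6 and Thy1 were also at least 2-fold lower at E18, which held for 9.53% of the genes tested. Since these genes were chosen from this very difference, the counts are a description, and the values below carry no test. The median log2 fold change of the members, E18 over P5, was -0.79, beside 0.00 over all genes tested. With E18 replicate 4 alone, all 7 log2 fold changes were still negative. They were -4.13 in Lynx1, -1.40 in Lypd6, -0.81 in Thy1, -0.78 in Lypd1, -0.48 in Lypd6b, -0.32 in Ly6e and -0.03 in Ly6h.

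**Figure D1:**
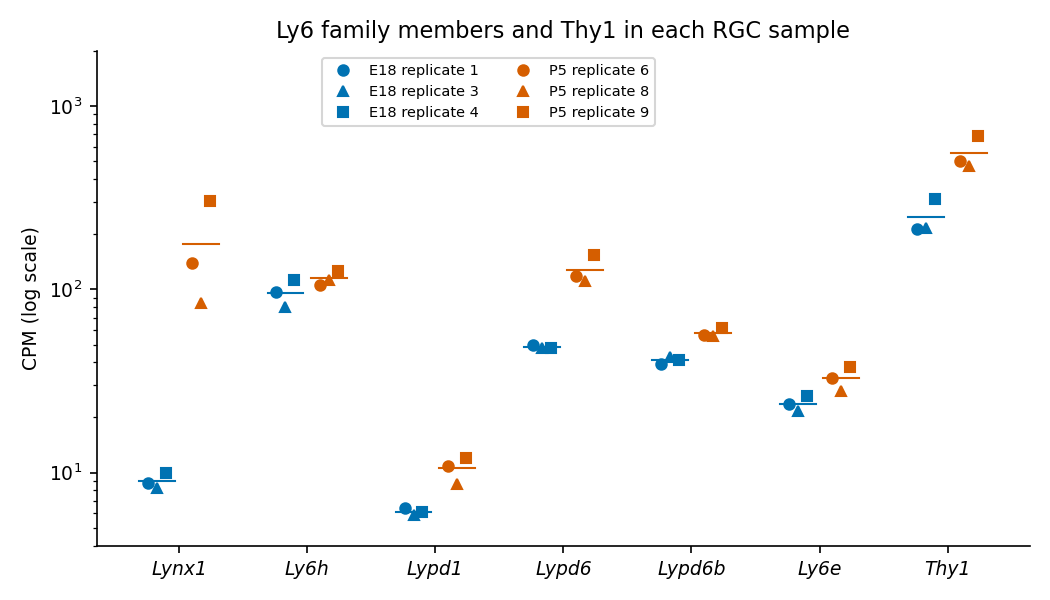
CPM of each member in each of the 6 samples, on a log axis, with 1 marker per replicate and horizontal bars at the mean of each age. In Lynx1 the P5 samples lie at 84.6 to 303 CPM, far above the E18 samples at 8.27 to 9.94 CPM, and in Ly6h the ages overlap.

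Lynx1 had the widest distance between the ages. It stood at 8.74, 8.27 and 9.94 CPM in E18 replicates 1, 3 and 4 and at 140, 84.6 and 303 CPM in P5 replicates 6, 8 and 9. These values rest on 725, 927 and 900 reads at E18 and on 12429, 8325 and 28489 reads at P5, so counting error at P5 is small beside the spread between the samples. The E18 samples were close to each other, whereas the P5 samples spread over a 3.58-fold range, with replicate 9 the highest and replicate 8 the lowest. Even the lowest P5 sample was 8.51-fold above the highest E18 sample. The means were 8.98 ± 0.862 CPM at E18 and 176 ± 113 CPM at P5 (SD, n = 3 each), and the log2 fold change, E18 over P5, was -4.29 with a standard error (SE) of 0.433, or 19.6-fold higher at P5. In the order of all 16449 log2 fold changes, Lynx1 was number 30 from the lowest. Without P5 replicate 9 the log2 fold change was -3.65, and without P5 replicate 8 it was -4.64.

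Lypd6 and Lypd6b, the most similar pair, have both been described as modulators of nicotinic receptors, and Lypd6 also as a membrane partner of the Wnt co-receptor Lrp6. Lypd6 stood at 49.8, 47.9 and 48.1 CPM at E18 and at 118, 111 and 154 CPM at P5. Its E18 samples lay within a 1.04-fold range, and the lowest P5 sample was 2.24-fold above the highest of them. The means were 48.6 ± 1.04 and 128 ± 22.8 CPM (SD, n = 3 each), giving a log2 fold change of -1.40 (SE 0.128).

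The ages lay closer together in Lypd6b. It stood at 39.1, 42.6 and 41.3 CPM at E18 and at 56.2, 55.8 and 61.9 CPM at P5, and the lowest P5 sample was 1.31-fold above the highest E18 sample. The means were 41.0 ± 1.78 and 58.0 ± 3.39 CPM (SD, n = 3 each), giving a log2 fold change of -0.50 (SE 0.091). The P5 samples of Lypd6b lay within a 1.11-fold range, the narrowest among the members.

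Lypd1, also called Lynx2, binds nicotinic receptors and had the lowest CPM of the 7. It stood at 6.41, 5.85 and 6.11 CPM at E18 and at 10.9, 8.72 and 12.1 CPM at P5, without overlap. The means were 6.12 ± 0.282 and 10.6 ± 1.71 CPM (SD, n = 3 each), giving a log2 fold change of -0.79 (SE 0.157). Lypd1 overlaps Gpr39, a zinc-sensing receptor on the other strand, over 1202 of its 7038 exon bases, and no source says whether the counting used strand. Gpr39 had 17 to 58 reads per sample, against 532 to 1138 for Lypd1, and was at 0.396 ± 0.108 CPM at E18 and 0.328 ± 0.134 CPM at P5 (SD, n = 3 each).

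Ly6h, a brain-enriched member known to lower the surface level of nicotinic receptors, was the one whose ages overlapped. It stood at 96.3, 79.9 and 112 CPM at E18 and at 106, 112 and 126 CPM at P5. E18 replicate 4 stood above P5 replicate 6. The means were 95.9 ± 15.8 and 115 ± 10.5 CPM (SD, n = 3 each), giving a log2 fold change of -0.26 (SE 0.132). Its log2 fold change was negative in every alternative fit, between -0.38 and -0.03, and it passed the threshold in none.

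Ly6e is an interferon-inducible member known for its effects on virus entry. It stood at 23.6, 21.6 and 26.1 CPM at E18 and at 33.0, 28.0 and 37.5 CPM at P5. The gap between the ages was narrow, with the lowest P5 sample only 1.07-fold above the highest E18 sample. The means were 23.8 ± 2.26 and 32.8 ± 4.72 CPM (SD, n = 3 each), giving a log2 fold change of -0.47 (SE 0.132). Ly6e no longer passed the threshold when E18 replicate 1, E18 replicate 3, P5 replicate 6 or P5 replicate 9 was left out, and the count of members past it was then 5.

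Thy1, the target of the antibody used for the purification, had the highest CPM of the 7 at both ages. It stood at 212, 217 and 312 CPM at E18 and at 500, 469 and 690 CPM at P5. E18 replicate 4 stood above the other E18 samples, yet the lowest P5 sample was still 1.5-fold above it. The means were 247 ± 56.2 and 553 ± 120 CPM (SD, n = 3 each), giving a log2 fold change of -1.16 (SE 0.189), or 2.24-fold higher at P5. Cells with more Thy1 at the surface are held more readily by this antibody, and whether the purification favoured such cells to the same degree at both ages was not tested.

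**Figure D2:**
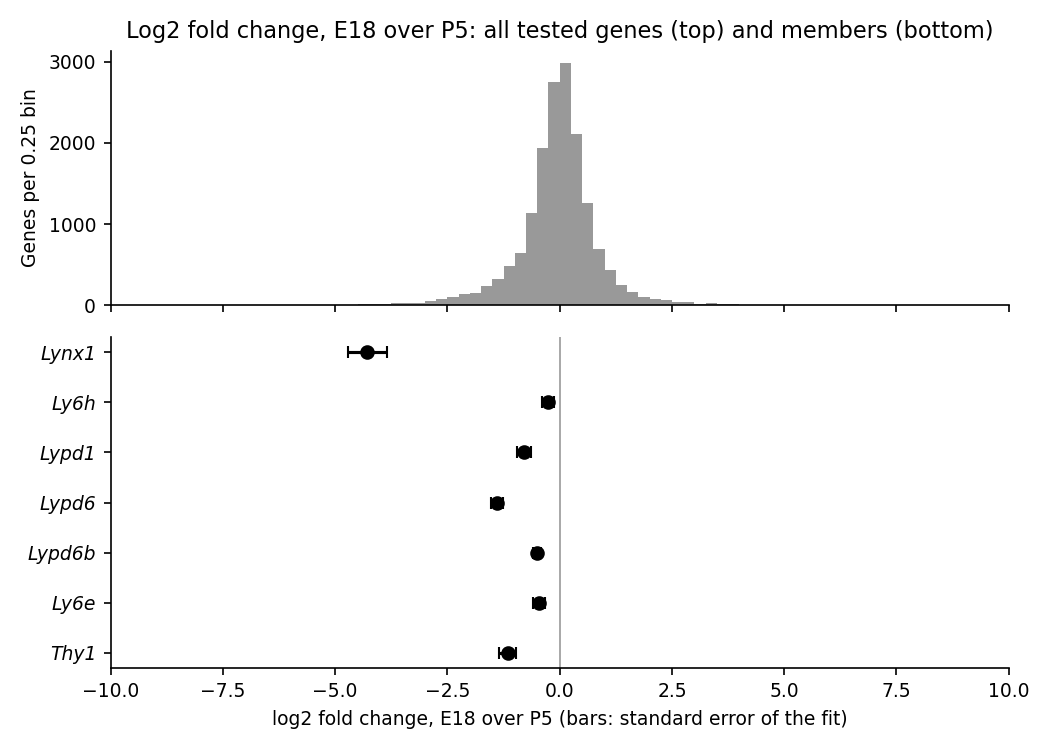
Log2 fold changes, E18 over P5, as a histogram of the 16449 genes tested (top, genes per bin) and for each member with its SE (bottom, horizontal bars). All 7 members lie below 0, from Lynx1 at -4.29 to Ly6h at -0.26.

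Levels of different genes were compared as CPM per kilobase of exon, with the exon length of all transcripts in the consensus coding set. These lengths are of GENCODE models, whereas reads were counted on RefSeq models, so levels and ranks between genes are approximate. On this scale, the order at E18 was Thy1, Ly6h, Lypd6b, Lypd6, Ly6e, Lynx1 and Lypd1. Thy1 ranged over its 3 samples from 122 to 180 CPM per kilobase and stood above 98.0% of the 14819 genes with a length. Ly6h followed at 22.3 to 31.2, Lypd6b at 17.1 to 18.6, Lypd6 at 13.1 to 13.6 and Ly6e at 8.78 to 10.6 CPM per kilobase. Lynx1, at 2.06 to 2.47 CPM per kilobase, stood above only 31.6% of the genes, and Lypd1 was the lowest, at 0.838 to 0.918. No neighbours in this order overlapped in their samples.

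At P5 the order was Thy1, Lynx1, Lypd6, Ly6h, Lypd6b, Ly6e and Lypd1, so that Lynx1 had passed 4 of the other Ly6 genes. Thy1 ranged from 270 to 398 CPM per kilobase and stood above 99.5% of the genes. Lynx1 ranged from 21 to 75.3 CPM per kilobase, and its mean of 43.7 ± 28.2 (SD, n = 3) was above 89.3% of the genes. The samples of Lypd6, at 30.5 to 42.1, of Ly6h, at 29.6 to 35.3, and of Lypd6b, at 24.4 to 27.1 CPM per kilobase, all lay inside the range of Lynx1, so its place among these 3 was not separated by the samples. The ranges of Lypd6 and Ly6h overlapped as well. Ly6e followed at 11.4 to 15.2 and Lypd1 at 1.25 to 1.73 CPM per kilobase, both apart from their neighbours. With coding length in place of exon length, Lypd6 and Lypd6b traded places at E18, and the order at P5 was the same.

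**Figure D3:**
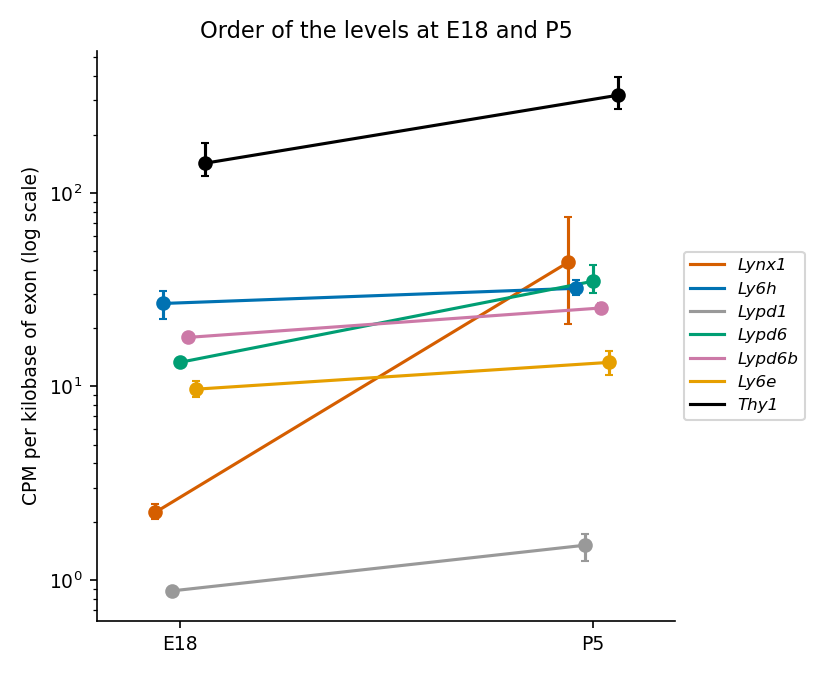
CPM per kilobase of exon of the 7 members at E18 and P5, on a log axis. Points and the lines between them show the mean of each age, and vertical bars run from its lowest to its highest sample. Lynx1 starts sixth, at 2.06 to 2.47, and ends among the upper genes at 21 to 75.3, whereas the other genes were 1.2- to 2.63-fold higher at P5.

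The makeup of the Ly6 members therefore differed between the ages within each sample. Lynx1 made up 3.09%, 3.13% and 3.24% of their summed CPM per kilobase in the 3 E18 samples and 25.6%, 17.6% and 38.3% in the P5 samples 6, 8 and 9. Ly6h made up 38.3%, 34.0% and 40.8% at E18 and 21.7%, 26.1% and 18% at P5. Ly6h itself was 1.2-fold higher at P5, with overlapping ages, and its lower share follows from the larger rise of the sum. Thy1 was 56.3, 60.9 and 72.8 times the level of Lynx1 at E18 and 8.26, 12.9 and 5.28 times at P5, per kilobase. Lypd6 stood below Lypd6b at E18, with ratios of 0.796, 0.703 and 0.727, and above it at P5, with ratios of 1.31, 1.25 and 1.55. Gene length scales these ratios by a constant, so which of the pair stands higher at E18 depends on the length used, whereas the difference between the ages does not.

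P5 replicate 9 had the highest value of the P5 samples in 7 of 7 members. Over all tested genes this held for 33.2%, and among the 3709 genes called lower at E18 for 62.7%. For Lynx1, P5 replicate 9 stood 1.48 log2 units above the mean of the other P5 samples, a distance larger than that of 99.6% of genes. For Thy1 it stood 0.51 units above (91.0% of genes below), for Lypd6 0.42 (88.0%), for Lypd1 0.31 (81.9%), for Ly6e 0.30 (81.2%), for Ly6h 0.22 (74.4%) and for Lypd6b 0.14 (67.0%). The standard deviation of log2 CPM in Lynx1 was 0.14 at E18 and 0.93 at P5, and the P5 value exceeded that of 99.9% of 3920 genes of similar level. At E18 the widest spread belonged to Thy1, with a standard deviation of 0.31, larger than in 99.2% of 932 genes of similar level. E18 replicate 4 was the highest of its age in Lynx1, Ly6h, Ly6e and Thy1, which held for 40.9% of genes.

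**Figure D4:**
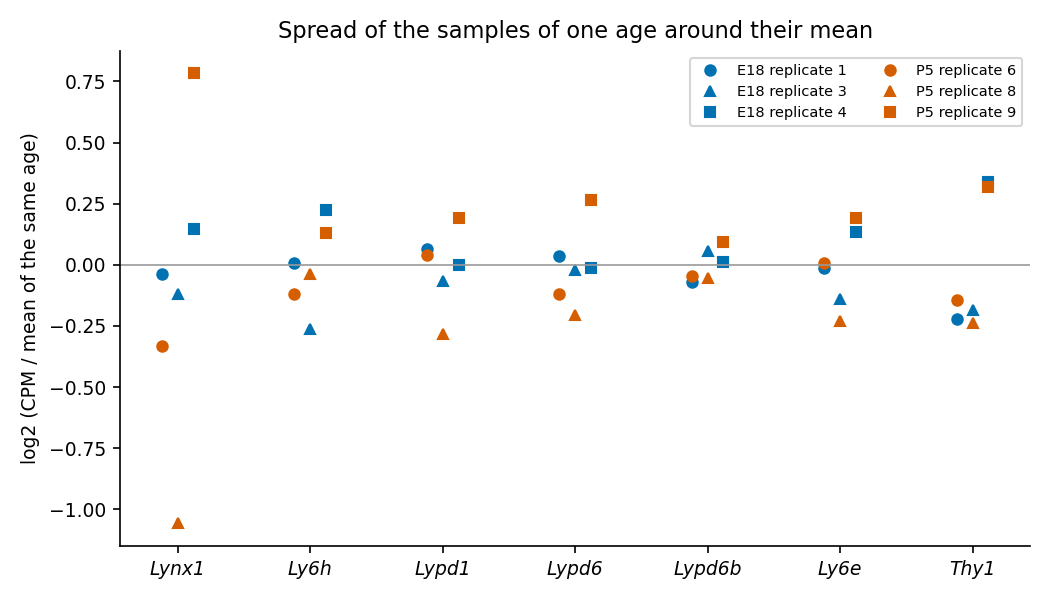
Log2 ratio of each sample to the mean of its own age, for the 7 members, with 1 marker per replicate. P5 replicate 9 lies on top of the P5 samples in every gene and farthest from them in Lynx1, and E18 replicate 4 lies above the other E18 samples in Thy1 and Ly6h.

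Over the 6 samples, log2 CPM of Lynx1 went most closely with Lypd6 among the members (Pearson r = 0.996) and least with Ly6h (r = 0.719). All such values share the difference between the ages and are given as a description. Of the 9725 tested genes whose mean reached 10 CPM, those most like Lynx1 were Camkv (r = 0.9993), a kinase-like protein of synaptic vesicles, Asic2 (r = 0.9991), a proton-gated channel, and Tspan2 (r = 0.9989), a tetraspanin. Camkv stood at 12.7, 13.3 and 14.7 CPM at E18 and at 63.1, 50.6 and 101 CPM at P5. The order of the P5 samples was that of Lynx1, over a smaller range. Those most like Thy1 were L3mbtl1, Kcnh5 and Syngr1 (r = 0.9986, 0.9982 and 0.9981), those most like Lypd1 were Snx3, Dynlt3 and Sod1 (r = 0.9986, 0.9982 and 0.998), and those most like Ly6h were Rrp9, Ssh3 and Ppp5c (r = 0.9838, 0.9812 and 0.9796).

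The rest of the Ly6/uPAR family was hardly detected in these samples. Of 37 other family genes listed, 34 were in the table, 6 of them under older symbols. Only 4 passed the filter on low counts, and 27 had at most 10 reads in every sample. No read was counted in any sample for Ly6d, Ly6g5c, Lypd8, Gml and Hemt1 (Gml2). A count of 0 allows up to 3 reads, or 0.0268 to 0.0362 CPM depending on the sample, for counting error only. Ly6a, Ly6c1 and Ly6c2, known from blood and vessel cells, reached at most 0.102 CPM in any sample.

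Cd59a, an inhibitor of the complement attack complex, was the one other family gene of note, at 9.33 ± 1.37 CPM at E18 and 9.11 ± 1.45 CPM at P5 (SD, n = 3 each), giving a log2 fold change of 0.03 (SE 0.171). Ly6g5b stood at 1.51 CPM at E18 and 1.08 CPM at P5 (log2 fold change 0.49), and Cd59b at 0.189 and 0.345 CPM (log2 fold change -0.87). Neither passed the threshold, with adjusted p-values of 0.188 and 0.126 by edgeR's quasi-likelihood test. Slurp1, a secreted member, was higher at E18, at 0.440 ± 0.120 CPM against 0.228 ± 0.0220 CPM (SD, n = 3 each), with a log2 fold change of 0.94 (SE 0.329, adjusted p = 0.0461). It rested on 20 to 48 reads per sample, and it did not pass with DESeq2, with library size alone as the scaling, without the filter on low counts, or when any 1 of the 6 samples was left out. With 1 of 4 past the threshold, the list is too short to be read against the 43.4% of all genes.

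Lynx1 lies in a stretch of chromosome 15 where most genes were hardly read. Within 300 kb of Lynx1 on either side, the table had 22 other genes, of which 7 passed the filter and 4 passed the threshold, the member Ly6e included, beside 43.4% of all genes tested. The nearest gene, Slurp2 (2300005B03Rik in the table), ends 1.2 kb from Lynx1 on the same strand and had 0 or 1 read in each E18 sample and 5, 3 and 6 reads at P5. Bai1 (Adgrb1), an adhesion receptor 158.4 kb away, was higher at P5, at 42.2 ± 12.6 CPM against 23.8 ± 1.02 CPM at E18 (SD, n = 3 each), with a log2 fold change of -0.83 (SE 0.187, adjusted p = 0.00817). Them6, 23.2 kb away, was also higher at P5, at 5.92 ± 1.62 CPM against 3.24 ± 0.573 CPM (SD, n = 3 each), with a log2 fold change of -0.87 (SE 0.238, adjusted p = 0.0180), and it lost the call without E18 replicate 3 or P5 replicate 9. The ends of Them6 and Slurp1 overlap on opposite strands, and without strand in the counting, reads there could not be told apart. Arc, an activity-induced synaptic gene 75.3 kb away, stood at 5.14 and 5.34 CPM (log2 fold change -0.06, SE 0.248). Jrk and 4933427E11Rik had log2 fold changes of -0.08 and 0.20. None of these 3 passed the threshold, with adjusted p-values of 0.870, 0.631 and 0.564.

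Nicotinic receptors, the best-known binding partners of Lynx1 and its relatives, carry the waves of activity that sweep the retina around birth. Of 16 subunits and chaperones tested, 4 were lower at E18, 2 were higher and 10 did not pass the threshold. This share of 37.5% was near the 43.4% of all genes, and the median log2 fold change was -0.19. Without E18 replicate 3, only 3 passed, and with E18 replicate 4 alone 2, Chrna6 and Ric3.

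Chrna6 rose the most among the abundant subunits. It stood at 238, 236 and 308 CPM at E18 and at 735, 497 and 845 CPM at P5, a log2 fold change of -1.41 (SE 0.193, adjusted p = 0.000965). As in Lynx1, P5 replicate 9 was the highest sample and P5 replicate 8 the lowest of its age. Chrna7 stood at 6.88 ± 0.664 CPM at E18 and at 14.6 ± 1.69 CPM at P5 (SD, n = 3 each), giving a log2 fold change of -1.08 (SE 0.143, adjusted p = 0.000853). Ric3, a chaperone of nicotinic receptor assembly, stood at 111 ± 5.9 and 212 ± 37.7 CPM, a log2 fold change of -0.93 (SE 0.128, adjusted p = 0.000975). These 3 kept their calls whichever 1 sample was left out.

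Chrna4 went the other way, with 98.4 ± 11.6 CPM at E18 and 73.3 ± 8.15 CPM at P5 (SD, n = 3 each), giving a log2 fold change of 0.43 (SE 0.120, adjusted p = 0.0204). It lost the call without E18 replicate 3 or P5 replicate 6. The other abundant subunits did not pass the threshold. Chrnb2 stood at 260 ± 22.9 and 288 ± 25.8 CPM, a log2 fold change of -0.14 (SE 0.103). Chrna3 stood at 95.2 ± 3.10 and 109 ± 9.35 CPM, and Chrnb3 at 99.4 ± 3.24 and 92.8 ± 17.3 CPM (SD, n = 3 each). Chrna5 was at 6.19 and 5.74 CPM, and the chaperone Tmem35 at 103 and 107 CPM. Chrna2 and Chrng also passed the threshold, lower and higher at E18, at means of 0.0357 against 0.190 CPM and 0.147 against 0.0496 CPM, with no more than 23 and 17 reads in any sample. Chrna2 lost the call without E18 replicate 3, and Chrng lost it with DESeq2 and in 5 of the 6 fits that left out 1 sample.

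**Figure D5:**
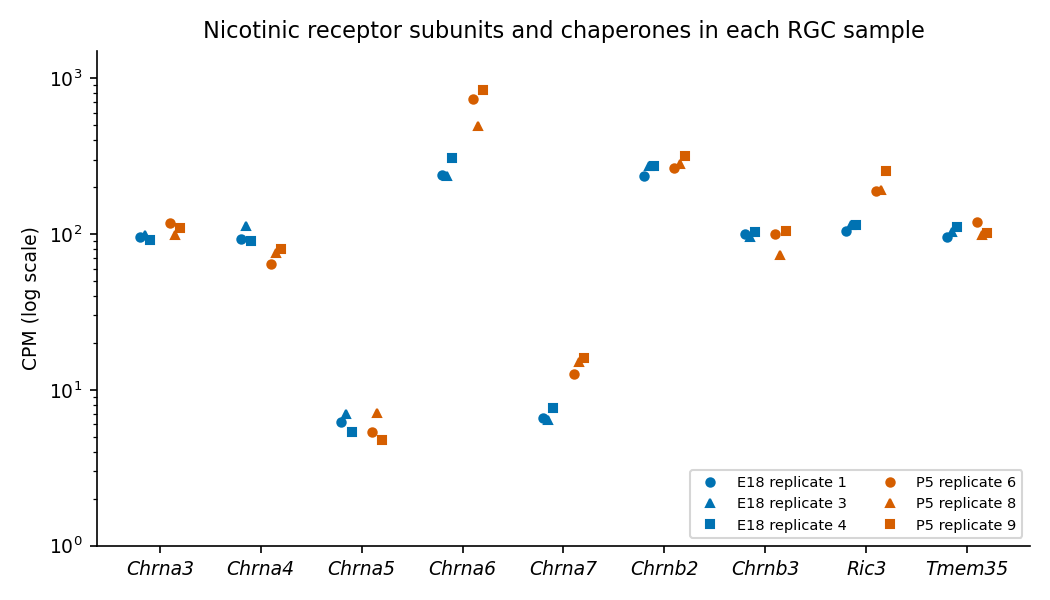
CPM of nicotinic receptor subunits and chaperones whose mean reached 5 CPM, in each sample, on a log axis, with 1 marker per replicate. Chrna6, Chrna7 and Ric3 have all P5 samples above all E18 samples, Chrna4 has them below, and the ages overlap in Chrnb2, Chrnb3, Chrna5 and Tmem35.

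The GPI anchor is made by a set of enzymes in the endoplasmic reticulum, on which Thy1 and most of the Ly6 members depend. Of 30 genes of its synthesis and remodelling tested, 6 were lower at E18, 2 were higher and 22 did not pass the threshold. Their share of 26.7% stood beside 43.4% of all genes, and the median log2 fold change was -0.03. Piga, part of the enzyme of the first step, was higher at E18, at 12 ± 1.03 CPM against 7.25 ± 0.239 CPM (SD, n = 3 each), giving a log2 fold change of 0.73 (SE 0.129, adjusted p = 0.00281). Pigm, a mannosyltransferase, was higher as well (log2 fold change 0.52, adjusted p = 0.0127). Pigw, an acyltransferase, Pigl, a deacetylase, and Pgap3, which remodels the lipid, were lower at E18, with log2 fold changes of -0.87, -0.70 and -0.58 (adjusted p = 0.00658, 0.0120 and 0.0167). The count past the threshold ranged from 4 without E18 replicate 3 to 14 without P5 replicate 8, and was 0 with E18 replicate 4 alone. Pigl and Pigm lost their calls without E18 replicate 3, and Pgap3 lost it in 4 of the 6 fits that left out 1 sample, those without an E18 sample and that without P5 replicate 9.

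Other GPI-anchored immunoglobulin proteins of neurons, the IgLON proteins and the contactins, were set beside Thy1. Of 11 tested, 6 were lower at E18, 1 was higher and 4 did not pass the threshold, or 63.6% against 43.4% of all genes, with a median log2 fold change of -0.53. Cntn1, a contactin of axons and myelinated fibres, stood at 236, 240 and 294 CPM at E18 and at 1210, 894 and 1370 CPM at P5, a log2 fold change of -2.17 (SE 0.165, adjusted p = 0.000118). Like Thy1, it was highest in E18 replicate 4 and P5 replicate 9 of their ages. Cntn4 stood at 28.1 ± 3.48 and 63.1 ± 13.9 CPM (SD, n = 3 each; log2 fold change -1.17, adjusted p = 0.00130), and Cntn6 at 31.8 ± 4.98 and 53.6 ± 13.4 CPM (log2 fold change -0.75, adjusted p = 0.0139). Cntn6 lost the call without E18 replicate 3 or P5 replicate 6. Cntn5 was the exception, higher at E18, at 86.6 ± 10.6 against 62.3 ± 2.99 CPM (log2 fold change 0.48, adjusted p = 0.00834). With E18 replicate 4 alone, 3 of the list passed the threshold, Cntn1, Cntn4 and Cntn5.

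Thy1 binds integrins and signals through Src-family kinases, and Lypd6 acts with Wnt co-receptors. Of 14 such partners tested, 7 were higher at E18, 3 were lower and 4 did not pass the threshold, or 71.4% against 43.4% of all genes, with a median log2 fold change of 0.36. Itgb1, the most abundant integrin subunit of the list, was higher at P5, at 284 ± 25.8 CPM against 152 ± 11.4 CPM (SD, n = 3 each; log2 fold change -0.91, SE 0.101, adjusted p = 0.000440). Itga5 and Itgav were also higher at P5, with log2 fold changes of -1.22 and -0.47 (adjusted p = 0.0157 and 0.0453). Itga5 lost the call without E18 replicate 3 or 4, and Itgav in 4 of the 6 fits that left out 1 sample, with upper-quartile normalization and with library size alone as the scaling. Fyn, the kinase best known downstream of Thy1, stood at 267 ± 16.3 and 298 ± 35.3 CPM and did not pass the threshold.

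The Wnt co-receptors went opposite to Lypd6. Lrp6 stood at 108, 109 and 93.2 CPM at E18 and at 65.4, 81.3 and 58.9 CPM at P5, a log2 fold change of 0.59 (SE 0.131, adjusted p = 0.00750); it was named after its value was seen. Lrp5 stood at 6.45 ± 2.66 and 1.84 ± 0.703 CPM (SD, n = 3 each; log2 fold change 1.81, adjusted p = 0.00437), and the receptor Fzd8 at 8.03 ± 1.35 and 2.77 ± 0.690 CPM (log2 fold change 1.54, adjusted p = 0.00141). These 3 kept their calls whichever 1 sample was left out. Itgb5 had the largest fitted change, with a log2 fold change of 2.24 (adjusted p = 0.0220), but its samples stood at 10.8, 9.20 and 1.24 CPM at E18 and at 1.80, 1.16 and 1.53 CPM at P5. E18 replicate 4 lay among the P5 samples, with a log2 fold change of -0.26 for that sample alone, and only the fit without that sample kept the call among the 6 that left out a sample. The order of the E18 samples in Itgb5 and in Lrp5 was that of the dividing cell markers, whose part in these differences was not tested. Without E18 replicate 3, 5 partners passed the threshold, and with E18 replicate 4 alone 2, Itgb1 and Fzd8.

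Since Ly6e is inducible by interferon, other interferon-stimulated genes were counted. Of 23 in the table, 14 were tested, 2 were higher at E18, 1 was lower and 11 did not pass the threshold, or 21.4% against 43.4% of all genes, with a median log2 fold change of 0.01. Ifi27 was higher at P5, at 3.16 ± 0.995 CPM against 0.596 ± 0.170 CPM (SD, n = 3 each; log2 fold change -2.40, SE 0.327, adjusted p = 0.000948). Stat2, which carries the interferon signal to the nucleus, was higher at E18, at 53.4 ± 5.87 against 33.9 ± 6.03 CPM (log2 fold change 0.66, adjusted p = 0.00691), as was Oas2 (log2 fold change 0.71, adjusted p = 0.0148). The count was 6 with DESeq2 and 8 without P5 replicate 8.

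Thy1 and several Ly6 genes are also expressed outside RGCs, so markers of other cells were summed. Of 6 T cell markers, Cd3e, Cd3d and Cd3g reached at most 0.0451 CPM in any sample, and the sums of 11.1 to 12.8 CPM at E18 and 9.58 to 12.8 CPM at P5 came almost wholly from Lck. The 10 microglia and macrophage markers summed to 2.13 to 2.94 CPM at E18 and 1.60 to 2.39 CPM at P5, and the 6 fibroblast markers to 4.44 to 4.57 and 2.64 to 3.52 CPM. The 7 red blood cell markers summed to 1.58 to 1.81 and 0.688 to 1.26 CPM, with 5 of them at 0. Those of endothelial cells and pericytes, 10 in all, summed to 72.8, 64.6 and 16.5 CPM in E18 replicates 1, 3 and 4 and to 14.7 to 17.9 CPM at P5, with Kdr the main part at E18. Of the 8 tested, Kdr was higher at E18, 3 were higher at P5, as the members were, and 4 did not pass the threshold. The 4 of 8 past it stood beside 43.4% of all genes. Rgs5, a pericyte marker, stood at 0.112 ± 0.0186 CPM at E18 and 2.33 ± 0.810 CPM at P5, Pecam1 at 0.686 ± 0.181 and 2.41 ± 0.293 CPM, and Tek at 0.830 ± 0.25 and 2.88 ± 0.700 CPM (SD, n = 3 each; log2 fold changes -4.36, -1.81 and -1.80, adjusted p = 0.000166, 0.00123 and 0.00239). Cdh5 and Tie1 reached at most 0.0609 CPM in any sample. The part of vessel cells in the values of the members was not tested.

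Among retinal cells, the 11 amacrine markers summed to 1490 to 1700 CPM at E18 and to 1790 to 2010 CPM at P5, most of it from Calb2 and Pax6, which RGCs also express. Of the 10 tested, 4 were higher at E18, 1 was lower and 5 did not pass the threshold. The 5 of 10 past it stood beside 43.4% of all genes, and the median log2 fold change of the 10 was 1.59. Calb2 was the lower one, at 819 ± 61.3 CPM at E18 and 1330 ± 174 CPM at P5 (SD, n = 3 each). Chat stood at 5.59, 10.9 and 0.287 CPM in E18 replicates 1, 3 and 4 and at 0.237 to 0.797 CPM at P5, so that E18 replicate 4 lay among the P5 samples.

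The 11 progenitor markers summed to 634 to 844 and 509 to 639 CPM, most of it from Pax6, at 678 ± 65.9 and 549 ± 69.6 CPM (SD, n = 3 each). Of these 11, 6 were higher at E18, 0 were lower and 5 did not pass the threshold, with a median log2 fold change of 2.97. The share past the threshold was 54.5%, beside 43.4% of all genes. Fgf15 stood at 21.2, 4.27 and 0.884 CPM in E18 replicates 1, 3 and 4 and at 0.0213 to 0.316 CPM at P5, and Notch1 at 26.0, 6.17 and 1.59 CPM and at 1.32 to 1.51 CPM. E18 replicate 1 was the highest in both, with replicate 4 nearest to P5.

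The 9 bipolar markers summed to 56.5 to 82.1 CPM at E18 and 84.5 to 116 CPM at P5. Of 7 tested, 2 were higher and 3 lower at E18, or 71.4% against 43.4% of all genes. The 10 markers of Müller glia and astrocytes summed to 404 to 450 and 271 to 326 CPM, the 9 of oligodendrocytes to 90.7 to 91.5 and 54.0 to 73.6 CPM, the 5 of horizontal cells to 65.1 to 112 and 41.5 to 47.0 CPM, and all 3 sums were higher at E18. Of the 6 oligodendrocyte markers tested, Mog was higher at E18, Mag and Olig1 were lower and 3 did not pass the threshold. The 3 of 6 past it stood beside 43.4% of all genes. Log2 fold changes of Mog, Mag and Olig1 were 1.28, -1.14 and -3.37 (adjusted p = 0.000907, 0.00446 and 0.00425). Olig1 had no more than 21 reads in any sample. The oligodendrocyte sums came mostly from Mbp, Mog and Cnp, whereas Sox10 and Mobp reached at most 0.11 and 0.0508 CPM in any sample. The 11 photoreceptor markers summed to 4.22 to 12.7 and 4.32 to 5.52 CPM. The part of these cells in the values of the members was not tested. Going by the sums, the comparison with E18 replicate 4 alone could not test it for Müller glia and astrocytes, oligodendrocytes and horizontal cells. Their markers summed to 404, 91.5 and 65.1 CPM in that sample, each above all P5 samples. Few genes made up most of these sums, such as Glul and Vim at 313 and 82.2 CPM and Onecut2 at 44.5 CPM. Single markers of a list did not all follow its sum. In E18 replicate 4, Glul and Vim were above all P5 samples, whereas Slc1a3 and Sox9, at 0.475 and 0.188 CPM, were not.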

How the data were processed

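RNA-seq of immunopanned RGCs was analysed in 6 samples grouped by the age in their titles. The authors' protocol depleted ribosomal RNA, whereas the labels name polyA RNA. STAR was their aligner on mm10 and HT-seq their counter, with RefSeq gene models, and raw read counts per gene were deposited. The submitters' processing notes also name CASAVA 1.8.2 and edgeR. The normalized counts, a signal that the authors scaled for library size, were deposited but not used, nor were the deposited log2 fold changes, p-values and rank score of the authors' own comparison. How reads that map to several genes were counted is not given in the sources used here. No pair of samples of one age agreed within sampling noise (chi-square of 30.5 to 141.3 per degree of freedom over genes).

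Scaling was by TMM. E18 was tested against P5 by edgeR 4.0.16 (R 4.3.3), quasi-likelihood test, on the 16449 genes that passed its filter, with Benjamini-Hochberg adjustment over all of them and a threshold of 0.05. All adjusted p-values are from this test. On simulated counts for these 16449 genes with 200 changed 2-fold, 126 were called, with 7 other genes. Far fewer genes were changed there than the 43.4% past the threshold in the data, so these counts do not give the error rates of the test here. CPM are counts divided by TMM library sizes, and correlations use log2 CPM with a prior count of 2. Coordinates, lengths and sequences are from GENCODE vM21 (mm10). Older symbols were matched through Entrez IDs of RefSeq.

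The members and all lists were chosen with earlier results of these data known. Named are the members, the 3 genes of each list with the largest fold in each direction past the threshold, nicotinic subunits whose mean reached 5 CPM, tested neighbours of Lynx1, and the 3 genes most like Lynx1, Lypd1, Ly6h and Thy1. Others were named after their values were seen. Alternatives were DESeq2 1.42.0, the exact test and the likelihood ratio test of edgeR, other scalings and filters, leaving out each sample, and, added after the data were seen, E18 replicate 4 alone.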

Additional observations from a re-analysis of the deposited data

How the results depend on the processing

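Of 201 values recomputed under an alternative, 178 stayed near the reported value and 23 moved further. Near meant counts within 1.5 times the reported count and log2 fold changes within 1 SD of the samples of one age. A gene with a wide spread could thus shift much and still count as near, as Lynx1 did from -4.29 to -3.65 without P5 replicate 9. Some alternatives change the test and hardly the fold change, such as the exact and likelihood ratio tests, with -4.29 for Lynx1 in both. The log2 fold changes among these values were those of the 7 members only, and 0 of a called member changed sign. Outside these values, the called partner Itgb5 changed sign, to -0.26 with E18 replicate 4 alone. All 7 members had a negative log2 fold change in every fit, and 5 or 6 of them passed the threshold in each fit that left out 1 sample. With all samples, 7682 genes were called by DESeq2 and 6251 with a filter at a mean of 1 CPM, and leaving out 1 sample gave 4575 to 8796. The other Ly6/uPAR genes had 0 calls with DESeq2 and with library size alone, and 0 to 1 when a sample was left out. Leaving out 1 sample gave 3 to 8 calls among nicotinic subunits and chaperones, 4 to 14 among GPI anchor genes, 5 to 8 among partners of Thy1 and Lypd6 and 3 to 8 among interferon-stimulated genes, which had 6 with DESeq2. With E18 replicate 4 alone, a choice made after seeing the data, 1633 genes were called, 3 of them members, 0 other Ly6/uPAR genes, 2 nicotinic subunits and chaperones, 0 GPI anchor genes, 3 IgLON proteins and contactins and 2 partners. Fits without a sample have fewer samples, and the cause of these differences was otherwise not tested. The share of calls higher at E18 was 40.2% to 49.5%, and the median log2 fold change of all genes -0.021 to 0.013. No paired analysis was possible because the ages share no replicate number. Depth limits the family genes with few reads, such as Slurp1.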
